A study of Mus musculus with 7 samples.

Results

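Solute carriers are the membrane proteins that move sugars, amino acids, nucleosides, metals, ions, vitamins and metabolites across the cell surface and the membranes of organelles. Their expression was followed here through retinoic acid differentiation of mouse embryonic stem cells. Members were all symbols that start with Slc and a number and had a mean log2 value of 7 or more over days 0 to 5, with the transcript of the highest mean standing for a symbol. The rule took 171 of the 209 solute carrier symbols in a table of 12071 symbols. Of the 171, 167 encode transporters, carriers or their subunits, and 4 (Slc4a1ap, Slc7a6os, Slc9a3r1 and Slc9a3r2) are named after a transporter but are none themselves. Just inside the minimum stood Slc4a4 at a mean of 7.04, Slc6a9 at 7.07 and Slc36a4 at 7.09. Just outside it stood Slc6a13 and Slc12a5, both at 6.97, and Slc15a2 at 6.95.

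Families were taken from the number in the symbol, so a family can hold members with another cargo, which are named where they occur. Most amino acid carriers sit in the plasma membrane, and several exchange one amino acid for another. The SLC25 carriers move metabolites across the inner mitochondrial membrane, the SLC35 carriers bring nucleotide sugars into the endoplasmic reticulum and Golgi, and the SLC30 and SLC39 families move zinc out of and into the cytosol. Pluripotent mouse stem cells in culture are known for rapid glucose and amino acid use.

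The cells were the mouse embryonic stem cell line CCE, grown without feeders on gelatin in high-glucose medium with serum, glutamine, non-essential amino acids and pyruvate. Day 0 was the stem cell culture with leukemia inhibitory factor (LIF) and DMSO, the solvent. Days 1, 2, 3, 4, 5 and 6 were cultures of the same line without LIF and with 5 µM retinoic acid, a vitamin A derivative that drives differentiation. LIF removal, retinoic acid and culture time all changed at once, so their parts cannot be told apart. Each day had 1 RNA-seq library of total RNA without ribosomal RNA, and no day had a replicate.

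The deposited values are log2 of depth-scaled read values per transcript, not divided by length. The numbers of reads recovered from the steps in those values were 9911246 to 17923852 over days 0 to 5 and 7194325 on day 6. Day 6 stood apart, with a median change of -2.42 log2 units from day 5 over the 171 solute carriers and of -1.13 over the 10246 symbols tested. That change followed transcript length, with a Spearman correlation of -0.60 across the solute carriers and -0.73 across all symbols tested, which are not independent replicates. Day 6 was therefore left out of the trends below. Over days 0 to 5 the median of all tested symbols also moved, from 9.23 on day 0 through 9.34, 9.44, 9.39 and 9.46 to 9.49 on day 5, and calls are given below also with each library centred on that median. The median stem cell marker stood at 13.36 on day 0. Of 8 stem cell markers, 7 were tested and 6 fell, with a summed level of 11.11 on day 5 and 16.29 on day 0 (log2). Of 9 markers of extraembryonic endoderm 7 rose, with a summed level of 13.79 on day 0, 18.26 on day 3 and 17.68 on day 5. All 5 markers of fibroblasts and smooth muscle rose, with sums of 14.96 on day 5 and 9.15 on day 0, and 2 of 4 tested neural markers rose, with sums of 11.84 on day 5 and 11.16 on day 0. These marker levels moved over the same days as every trend below, their part in the trends was not tested, and in such bulk libraries fewer cells of a type and less RNA per cell cannot be told apart.

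To ask which solute carriers moved steadily through differentiation, limma was used to fit a straight line on day to days 0 to 5 of every tested symbol, and a symbol was called at a Benjamini-Hochberg adjusted p under 0.05. With 1 library a day, such a p measures only how far the libraries lie from a line. Of the 171 solute carriers 48 rose (28.1%), 31 fell (18.1%) and 92 were not called. Over all tested symbols 25.7% rose and 23% fell, so the shares of the solute carriers lay near the background. The median slope was 0.045 log2 units per day over the solute carriers and 0.011 over all tested symbols. Among called solute carriers 60.8% rose, and this share was 53.1% with median-centred libraries and 47.4% after quantile normalisation. Over all called symbols the same shares were 52.8%, 40.5% and 43.3%. The scalings thus moved the whole table: 2637 of all tested symbols rose and 2359 fell as deposited, and 2143 and 2810 after quantile normalisation. With median-centred libraries these counts were 2131 and 3126. All 79 called solute carriers kept the sign of their slope whichever day was left out. Those fits share most of the libraries that gave the call, so a kept sign is a weak check. Of the 48 that rose, 21 were called in all 6 fits that each left out a day, and of the 31 that fell, 13 were. Leaving out day 0 gave 27 rising and 16 falling solute carriers, and leaving out day 4 gave 31 and 19. With day 6 in the fit, 1 rose and 9 fell.

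**Figure D1:**
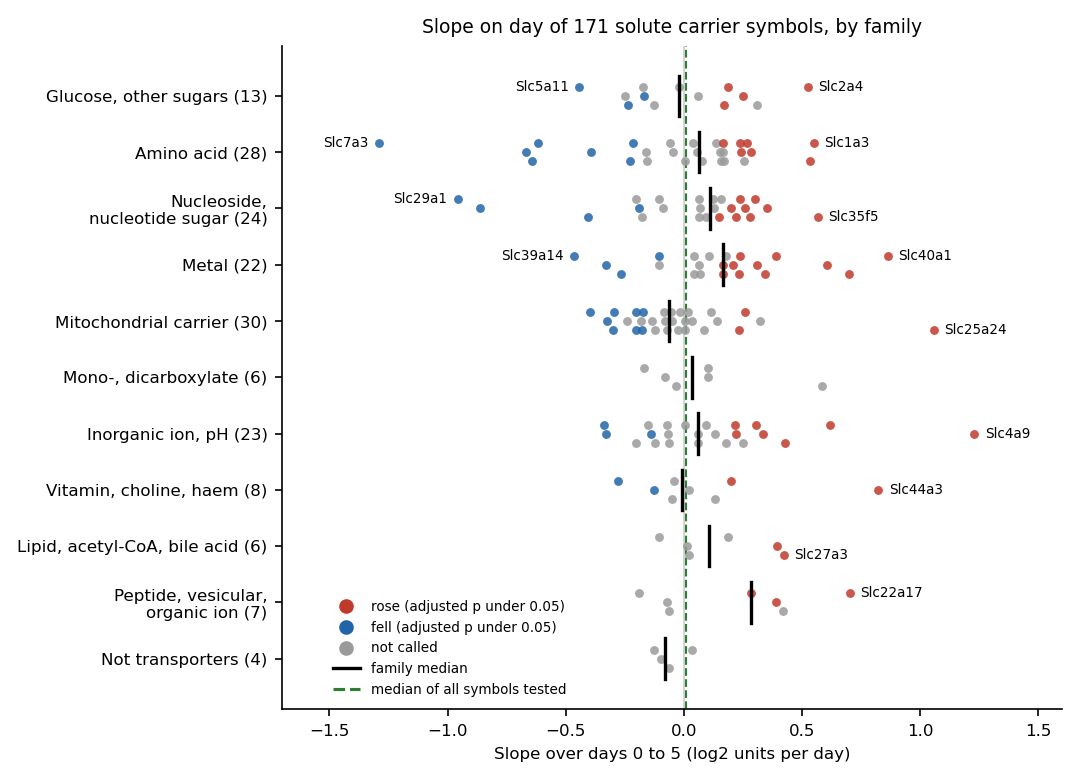
Slope on day over days 0 to 5 (log2 units per day, horizontal axis) of each of the 171 solute carrier symbols, by family (rows, number of symbols in brackets). Red points rose, blue points fell and grey points were not called; black bars are family medians and the green dashed line is the median of all tested symbols. Slc7a3 lies at the far left at -1.29 and Slc4a9 at the far right at 1.23, and the metal family median lies at 0.17 while that of the mitochondrial carriers lies at -0.06.

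The fastest changes came early. The root mean square step between consecutive days over the 171 solute carriers was 0.82 log2 units into day 1, 0.77 into day 2, 0.51 into day 3, 0.41 into day 4 and 0.30 into day 5. Over all tested symbols the same steps were 0.75, 0.79, 0.52, 0.35 and 0.27. On day 5, 17 solute carriers were at least 4-fold above day 0 and 9 at least 4-fold below, where 10.9% and 3.23% of all tested symbols were. After quantile normalisation these counts were 9 and 12, and with median-centred libraries 13 and 13. On day 1, 3 were at least 4-fold above day 0 and 2 at least 4-fold below, where 1.74% and 0.556% of all tested symbols were. After quantile normalisation the first of these counts was 1, and with median-centred libraries the second was 3. These differences are each between 2 libraries, and the intervals given with them below are 95% exact binomial intervals that cover counting error only.

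Of 28 amino acid carriers 7 rose (25%) and 7 fell (25%), shares near the 25.7% and 23% of all tested symbols. Leaving out day 0 gave 3 and 4, while leaving out day 1 or day 4 gave 4 rising. In SLC7, the cationic amino acid carriers and the light chains of heteromeric carriers, 5 of 7 fell and 1 rose, with a median slope of -0.39 log2 units per day, and without day 0 2 fell. Over all tested symbols 25.7% rose and 23% fell.

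Slc7a3, a carrier of arginine and lysine (transcript at chrX:98274559-98280691, mm9, minus strand), had the steepest fall of the 171, with log2 values of 12.09, 9.78, 6.68, 5.32, 5.39 and 5.96 on days 0 to 5. Its slope was -1.29 ± 0.29 log2 units per day (SE, adjusted p = 0.0128), and the call was lost without day 0 (adjusted p = 0.0831). The value on day 1 was 4.95-fold below day 0, and that on day 5 was 70.3-fold below, at -6.13 log2 units with an interval of -6.56 to -5.74. Most of this loss was thus in place by day 3, and the later days stayed low.

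Slc7a1, the more widely expressed carrier of the same amino acids, fell later and less, with values of 11.79, 11.85, 11.51, 11.50, 10.26 and 9.99 and a slope of -0.39 ± 0.076 (adjusted p = 0.00791). Per kilobase of transcript, Slc7a3 stood 1.90 log2 units above Slc7a1 on day 0 and 0.48 below it on day 1. From day 2 on it stood 2.43 to 4.59 units below, so the order of this pair turned within the first day.

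Slc7a5 is the light chain of the exchanger of large neutral amino acids, and Slc3a2 is the heavy chain that carries it to the surface. Slc7a5 had log2 values of 12.81, 12.26, 11.31, 10.77, 9.68 and 9.79 and fell by 0.67 ± 0.061 log2 units per day (adjusted p = 0.00206). Slc3a2 had values of 11.89, 11.57, 11.03, 11.22, 10.78 and 10.72 and fell by 0.23 ± 0.043 (adjusted p = 0.00704). Both were called whichever day was left out. Per kilobase, the light chain stood 1.37 log2 units below the heavy chain on day 5 and 0.47 above it on day 0.

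Other light chains took other courses. Slc7a7, which exchanges cationic for neutral amino acids, had values of 11.77, 11.31, 9.60, 8.47, 9.20 and 8.95 (slope -0.62 ± 0.15, adjusted p = 0.0155, and 0.0963 without day 0). It overlaps a listed transcript on the opposite strand, and the strand setting of the counting is one of the steps not given in the sources used here. Slc7a6, its relative, was not called, at 10.24, 10.74, 11.40, 11.70, 11.17 and 11.02 on days 0 to 5. Slc7a10, a carrier of small neutral amino acids, fell by 0.22 log2 units per day but was called in 3 of the 6 fits that left out a day. Like Slc7a7, it overlaps a listed transcript on the opposite strand.

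Slc7a11, the light chain of the cystine and glutamate exchanger, was the SLC7 member that rose. It had values of 8.84, 9.04, 9.71, 9.61, 9.48 and 9.76 and a slope of 0.17 ± 0.055 (adjusted p = 0.0455), a call that remained in 1 of the 6 fits that left out a day and in none of the other scalings (adjusted p = 0.0937 after quantile normalisation, 0.0874 with median-centred libraries and 0.244 with a correction for transcript length). Slc7a11 is a textbook target of ATF4, the factor of the amino acid response, and the 250 bases before its transcript start (RefSeq, GRCm38.p6, chr3:50443614-50443863, minus strand, 5′ to 3′) are shown to display 2 matches to the composite element TGATGNAA, in capitals, 1 on each strand:
Slc7a11: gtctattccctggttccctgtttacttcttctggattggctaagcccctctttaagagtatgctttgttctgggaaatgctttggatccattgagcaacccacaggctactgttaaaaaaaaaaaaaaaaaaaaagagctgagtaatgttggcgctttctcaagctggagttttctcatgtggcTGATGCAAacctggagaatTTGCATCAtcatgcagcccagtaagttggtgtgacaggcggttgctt
Of 113 solute carriers whose start matched a RefSeq window, 2 held this motif on either strand, Slc7a11 and Slc7a7. That is 1.77%, against 3.45% of 32851 mouse windows, which are not limited to the symbols tested here. Slc7a11 had a positive slope and Slc7a7 a negative one, and a match is a description of these letters only.

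Glutamine and glutamate carriers of SLC1 also parted. Slc1a5, the main plasma membrane glutamine exchanger, had log2 values of 10.20, 12.01, 11.42, 9.97, 8.66 and 7.99. It stood 3.49-fold above day 0 on day 1 and 4.63-fold below it on day 5. The line fell by 0.64 ± 0.20 log2 units per day (adjusted p = 0.0381) but was called in only 2 of the 6 fits that left out a day, with adjusted p up to 0.182 without day 5. The day 1 value is the highest of the 6, and the later days fall away from it.

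Slc1a3, a glutamate carrier of astrocytes and other cells, had 7.86, 7.63, 7.42, 8.98, 9.79 and 10.10 and rose by 0.55 ± 0.12 per day (adjusted p = 0.0105, and 0.0509 without day 5). Its climb began on day 3, after 3 days near the starting level. Slc1a4, the exchanger of alanine, serine and cysteine, rose by 0.27 ± 0.057 (adjusted p = 0.011, 0.0521 without day 0 and 0.0523 without day 5). Per kilobase, Slc1a5 stood 0.94 log2 units below Slc1a4 on day 5 and 2.64 above it on day 0.

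Both SLC36 amino acid carriers rose. Slc36a4 had 4.94, 6.74, 7.37, 7.76, 7.72 and 8.02, with a slope of 0.53 ± 0.13 (adjusted p = 0.0149). Its day 0 value rests on few reads, as a log2 value of 4.85 on that day stood for 15 reads. Slc36a1 had a slope of 0.29 ± 0.058 (adjusted p = 0.00936), and both were called whichever day was left out. In SLC38, the sodium-coupled neutral amino acid carriers, 2 of 7 rose, Slc38a6 and Slc38a7, both at 0.24 per day. Neither was called without day 0, day 1 or day 4 (adjusted p = 0.0538 to 0.111), and Slc38a6 was not called after quantile normalisation (adjusted p = 0.109).

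Amino acid carriers with the highest values on this scale were not called. Slc38a2 had values of 12.34, 12.21, 12.99, 12.75, 12.30 and 11.996, and its relative Slc38a4 had 12.34, 13.04, 13.16, 13.45, 12.59 and 12.60. Both stood higher in the middle of the course than at its ends. None of the 5 SLC6 members was called, among them Slc6a6, the taurine carrier, and Slc6a8, the creatine carrier. Slc6a3, the dopamine carrier, was called as falling after quantile normalisation (adjusted p = 0.0163), with median-centred libraries and with the length correction. Slc43a3, a purine nucleobase carrier placed here by its number, had 7.59 to 8.34 on days 1 to 5 and 6.15 on day 0 and was not called (adjusted p = 0.187). The list of partner subunits and amino acid response genes had 11 of 14 members tested. Of these 3 rose and 3 fell (27.3% each), near the 25.7% and 23% of all tested symbols. Bsg, the partner of the lactate carriers, rose by 0.26 log2 units per day, and Ddit3, a stress factor, by 0.48. Asns, asparagine synthetase, fell by 0.44, Shmt2 by 0.51 and Mthfd2 by 0.43, the last pair being mitochondrial enzymes of folate metabolism.

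**Figure D2:**
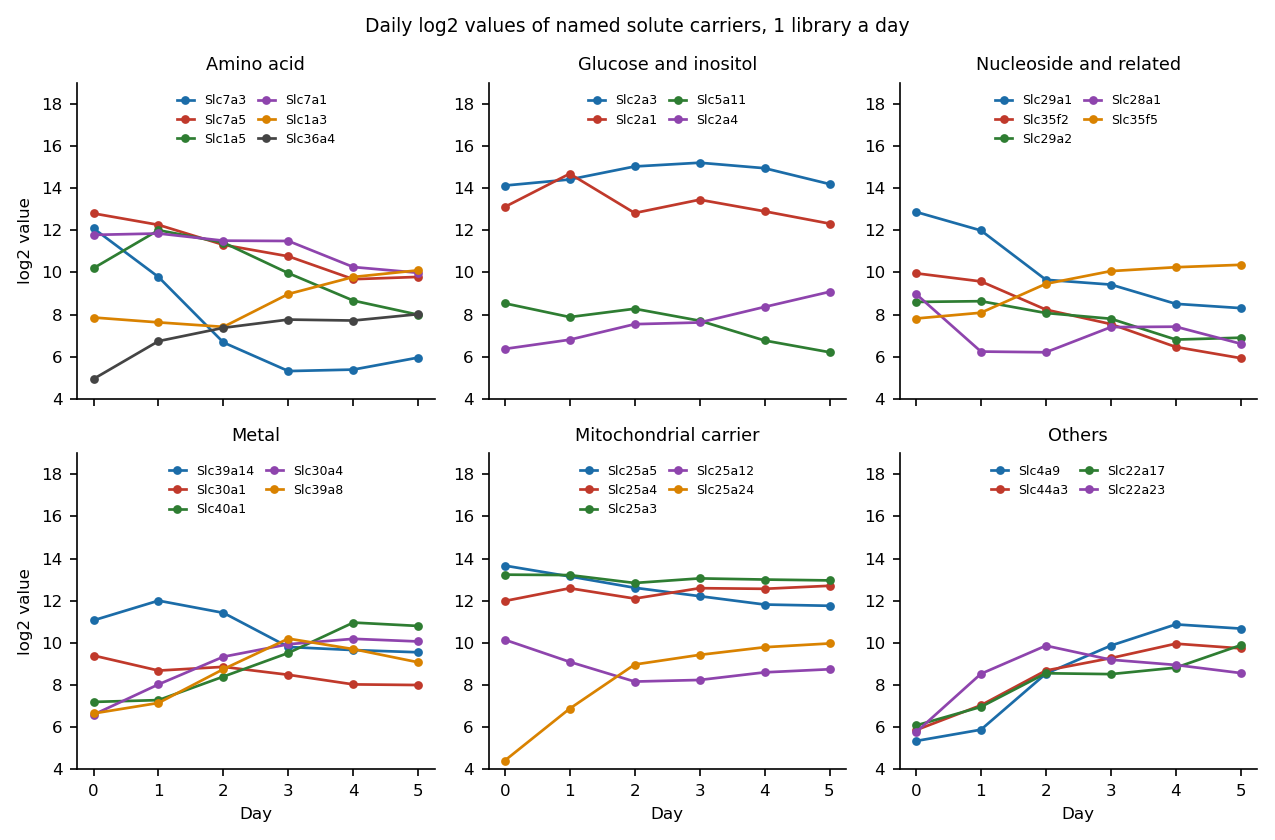
Log2 value (vertical axis) on days 0 to 5 (horizontal axis) of named solute carriers in 6 panels, 1 library a day and no error bars because no day has a replicate. Slc7a3 drops to 5.32 by day 3, Slc2a1 is highest on day 1 at 14.69, and Slc25a24 climbs to 9.97 on day 5, against 4.40 on day 0.

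The glucose carriers Slc2a1 and Slc2a3 were among the highest solute carriers per kilobase. The median member of the sugar families had a mean log2 value of 8.15, and that of all 171 solute carriers 8.85. Of 13 members of the sugar families 4 rose (30.8%) and 3 fell (23.1%), near the 25.7% and 23% of all tested symbols. Leaving out day 0, day 1 or day 4 gave 2 rising, and the length correction gave 2 rising and 4 falling. Slc2a1, the basal glucose carrier, had log2 values of 13.11, 14.69, 12.82, 13.46, 12.90 and 12.32 and was not called (slope -0.25 ± 0.14, adjusted p = 0.182). Its day 1 value was 2.99-fold above day 0, and no other day was as high. Slc2a3, the high-affinity glucose carrier, had 14.13, 14.42, 15.04, 15.21, 14.95 and 14.20 and was not called either (adjusted p = 0.616), though without day 5 it was, as rising (slope 0.24, adjusted p = 0.0396). It was 2.12-fold above day 0 on day 3 and back near its starting level on day 5.

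Per kilobase, Slc2a3 stood 0.40 log2 units above Slc2a1 on day 0 and 0.89 below it on day 1, and then 1.14 to 1.59 above it on days 2 to 5. Slc2a1 was the highest of all 171 solute carriers per kilobase on day 1, at 13.32, and Slc2a3 on days 2, 3 and 4, at 13.05, 13.22 and 12.97. The insulin-responsive glucose carrier Slc2a4 started low and climbed throughout, at 6.37, 6.81, 7.54, 7.62, 8.36 and 9.08, with a slope of 0.52 ± 0.055 (adjusted p = 0.00248). It was 6.55-fold above day 0 on day 5 and was called whichever day was left out.

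Other called members of these families include carriers of other cargo. Slc5a11, a sodium-coupled carrier of myo-inositol, fell by 0.44 ± 0.084 log2 units per day, with 6.21 on day 5 and 8.53 on day 0 (adjusted p = 0.0076). Slc5a3, the related myo-inositol carrier, rose by 0.25 ± 0.066 (adjusted p = 0.0218, 0.127 without day 0, 0.0589 without day 1 and 0.0634 with the length correction), but it shares its locus and strand with Mrps6, whose reads cannot be told apart from it. Slc37a4, the glucose 6-phosphate carrier of the endoplasmic reticulum, had a slope of 0.19 called in 1 of the 6 fits that left out a day and not after quantile normalisation (adjusted p = 0.324) or with median-centred libraries (adjusted p = 0.0688). Slc5a6, the multivitamin carrier, fell by 0.17 and was called in 3 of the 6 fits that left out a day. Of the 16 tested genes of glucose use 1 rose (6.25%) and 5 fell (31.2%), against 25.7% and 23% of all tested symbols. Hkdc1, a hexokinase, rose by 1.44 log2 units per day, while Pfkp, a phosphofructokinase, fell by 0.95, Hk2 by 0.36 and Txnip, which draws glucose carriers from the surface, by 0.48.

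Among carriers of nucleosides and nucleotide sugars, 2 equilibrative nucleoside carriers fell and 9 members of SLC35 rose. Of all 24 members 9 rose (37.5%) and 4 fell (16.7%), against 25.7% and 23% of all tested symbols. After quantile normalisation 4 rose and 5 fell, and without day 0 4 rose and 3 fell. Slc29a1, the main equilibrative nucleoside carrier (chr17:45722170-45729342, mm9, minus strand), had log2 values of 12.88, 11.996, 9.65, 9.43, 8.51 and 8.31 and fell by 0.96 ± 0.12 per day (adjusted p = 0.00311). On day 5 it was 23.7-fold below day 0, at -4.57 log2 units with an interval of -4.75 to -4.39. Its largest single step, more than 2 log2 units, was into day 2.

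Its relative Slc29a2 fell by 0.41 ± 0.066 (adjusted p = 0.00494), with 6.90 on day 5 and 8.60 on day 0. The concentrative carrier Slc28a1 had 8.98, 6.24, 6.21, 7.40, 7.42 and 6.62, so that it lay 6.67-fold below day 0 on day 1, and it was not called over the line. Slc29a3, the nucleoside carrier of lysosomes, had 9.98 on day 0 and 8.07 on day 1, 3.76-fold lower, and 8.52 to 8.86 later. Slc28a3, another concentrative carrier, had 7.16 to 8.20 on days 1 to 5 and 6.15 on day 0, and was not called. Per kilobase, Slc29a1 stood 2.22 log2 units above Slc28a3 on day 5 and 7.90 above it on day 0.

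In SLC35 9 of 18 members rose and 2 fell, though after quantile normalisation 4 rose and 3 fell, and without day 0 4 rose and 1 fell. Without day 1 or day 4, or with the length correction, 1 fell. Slc35f5, of a poorly characterised branch, rose most, with 7.81, 8.09, 9.46, 10.07, 10.25 and 10.36 and a slope of 0.57 ± 0.084 (adjusted p = 0.00397). Slc35f2, of the same branch, fell most, with 9.96, 9.58, 8.24, 7.55, 6.46 and 5.93 and a slope of -0.86 ± 0.059 (adjusted p = 0.00198). Both were called whichever day was left out. Slc35a2, which carries UDP-galactose, rose by 0.30, Slc35c1, which carries GDP-fucose, by 0.24, Slc35d1, which carries UDP-glucuronic acid, by 0.22, and Slc35a1, which carries CMP-sialic acid, by 0.15. Slc35a2 and Slc35a1 were not called after quantile normalisation (both adjusted p = 0.062), and Slc35a1 not with median-centred libraries either. Without day 0, Slc35c1 (adjusted p = 0.0842), Slc35d1 (0.0684) and Slc35a1 (0.16) were not called. Slc35a2 was not called without day 4 (adjusted p = 0.0519), nor Slc35a1 without day 4 or day 5. Of 13 tested genes of nucleoside salvage 2 rose (15.4%) and 4 fell (30.8%), against 25.7% and 23% of all tested symbols. Upp1, uridine phosphorylase, fell by 1.17 log2 units per day, Dctd, dCMP deaminase, by 0.46 and Hprt, the purine salvage enzyme, by 0.33.

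More metal carriers rose than fell. Of 22 members 11 rose (50%) and 4 fell (18.2%), where 25.7% and 23% of all tested symbols did, with a median slope of 0.17 log2 units per day. After quantile normalisation 9 rose and 4 fell, and with median-centred libraries 10 and 4. Leaving out day 0 or day 4 gave 7 rising, and the falling count was 1 without day 0 or day 5 and 2 without day 1 or day 4. Slc40a1, ferroportin, the exporter of iron (chr1:45964914-45982439, mm9, minus strand), rose most, with 7.19, 7.28, 8.39, 9.52, 10.96 and 10.80 and a slope of 0.86 ± 0.095 (adjusted p = 0.00262). Its day 5 value was 12.2-fold above day 0, its day 1 value still lay near day 0, and the climb ran through days 2 to 4.

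Slc11a2, the importer of ferrous iron, fell by 0.11 ± 0.036 (adjusted p = 0.0465), and neither a fit that left out a day nor one on summed transcripts called it. The zinc importers of SLC39 rose in 7 of 11 members and fell in 2, and after quantile normalisation 5 rose and 2 fell. Without day 0 4 SLC39 members rose, without day 0, 1 or 4 1 fell, and without day 5 0 fell. Slc39a8, which also carries manganese, had 6.64, 7.14, 8.75, 10.20, 9.70 and 9.07 (slope 0.61 ± 0.18, adjusted p = 0.0303). It peaked on day 3, and its call was lost without day 0, day 1 or day 4, with an adjusted p up to 0.165. Slc39a14, the importer of zinc, manganese and iron, had 11.07, 12.001, 11.42, 9.80, 9.65 and 9.55. Its slope was -0.46 ± 0.13 (adjusted p = 0.0235), and its call was lost without day 1, day 4 or day 5, with an adjusted p up to 0.0701. Per kilobase, Slc39a14 stood 3.94 log2 units above Slc39a8 on day 0 and 4.38 above on day 1. It stood 0.88 below Slc39a8 on day 3, 0.52 below on day 4 and 0.0036 below on day 5, so the pair ended level.

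The steadier zinc importers were Slc39a1 at the cell surface, with a slope of 0.34 ± 0.057 (adjusted p = 0.00543), Slc39a13 of the secretory pathway at 0.39 ± 0.059 (adjusted p = 0.00415), and Slc39a6 at 0.31 ± 0.042 (adjusted p = 0.00341). All 3 were called whichever day was left out. Slc39a7, the zinc carrier of the endoplasmic reticulum, rose too, with 12.04 on day 5 and 11.14 on day 0 (slope 0.17 ± 0.034, adjusted p = 0.00973, and 0.0664 without day 0). Slc39a4, known as the zinc importer of the gut, fell by 0.33, with 7.44 on day 5 and 9.52 on day 0, and was not called without day 0 (adjusted p = 0.0734) or day 5.

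In SLC30, the zinc exporters, 2 of 6 members rose (33.3%) and 1 fell (16.7%), where 25.7% and 23% of all tested symbols did. Without day 0 or day 4, 1 rose, and without day 0, 0 fell. The faller and the steepest riser are set side by side here, and pairs with opposite slopes tend to cross. Slc30a1, the exporter at the cell surface, had 9.39, 8.68, 8.86, 8.48, 8.02 and 7.99 and fell by 0.27 ± 0.052 (adjusted p = 0.00802, and 0.0546 without day 0). Slc30a4, which loads zinc into vesicles, had 6.59, 8.02, 9.34, 9.93, 10.19 and 10.06 and rose by 0.70 ± 0.13 (adjusted p = 0.00682), a call kept whichever day was left out. Per kilobase, Slc30a1 stood 2.00 log2 units below Slc30a4 on day 5 and 2.87 above it on day 0. Slc30a1 is a textbook target of MTF1, the zinc-sensing factor. The 250 bases before its transcript start (RefSeq, GRCm38.p6, chr1:191906531-191906780, plus strand, 5′ to 3′) are shown with their 1 match to the metal response core TGCACNC in capitals, which reads on the other strand:
Slc30a1: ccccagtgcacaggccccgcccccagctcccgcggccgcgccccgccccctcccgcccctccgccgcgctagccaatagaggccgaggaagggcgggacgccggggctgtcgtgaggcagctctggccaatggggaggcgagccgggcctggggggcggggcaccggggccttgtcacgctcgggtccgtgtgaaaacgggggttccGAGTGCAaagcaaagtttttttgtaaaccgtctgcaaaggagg
This core was found on either strand in 10 of the 113 matched solute carriers (8.85%), against 10.4% of the 32851 windows. Those windows are not limited to the symbols tested here.

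Of the metal handling genes outside the carriers, 8 of 15 tested fell (53.3%) and 3 rose (20%), where 23% and 25.7% of all tested symbols did. The metallothioneins Mt2 and Mt1, which bind zinc and copper, fell by 1.19 and 0.50 log2 units per day. Mtf1 itself fell by 0.17, Tfrc, the transferrin receptor, by 0.34, Trf, transferrin, by 0.62 and Steap3, an iron reductase, by 0.75. Atp7a, a copper pump, rose by 0.38, and Slc31a1, the copper importer, by 0.17 (adjusted p = 0.0117, and 0.0519 without day 4).

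**Figure D3:**
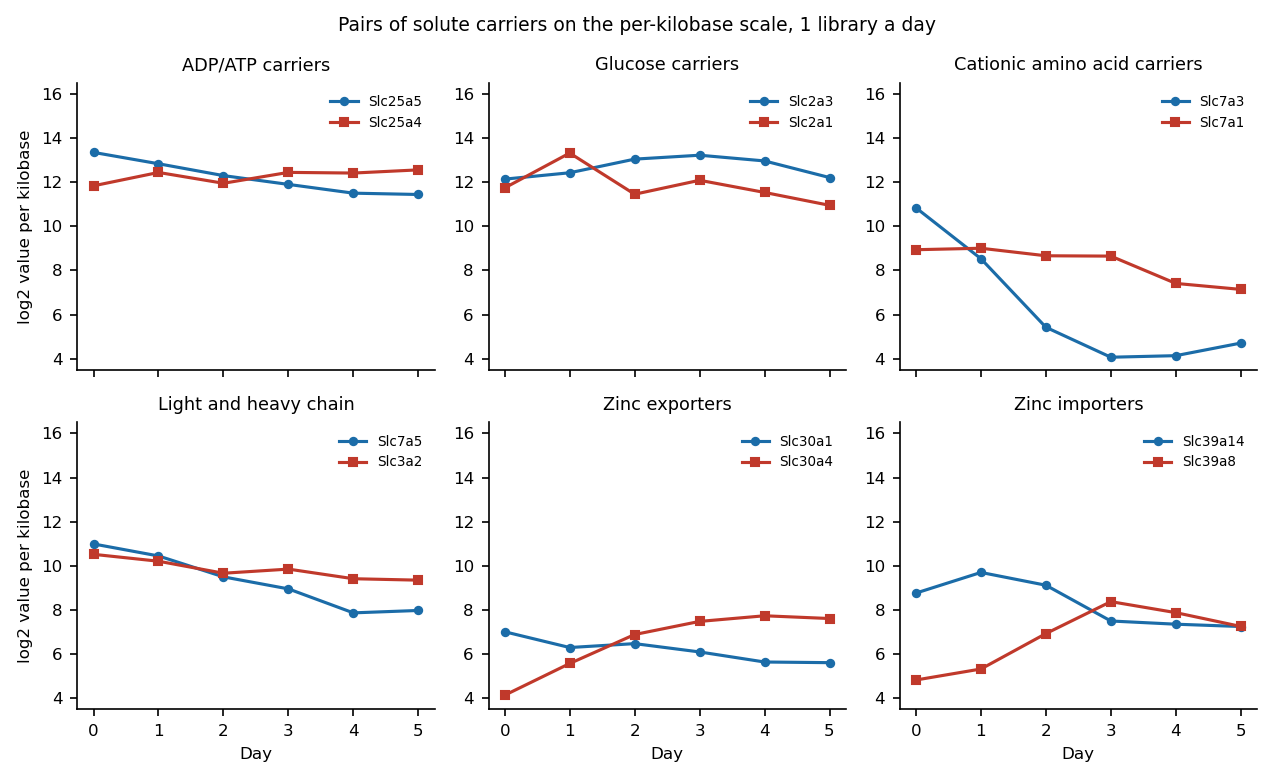
Log2 value per kilobase of transcript (vertical axis) on days 0 to 5 (horizontal axis) for 6 pairs of solute carriers with related cargo or a shared complex, 1 library a day. Slc25a5 stands 1.12 below Slc25a4 on day 5 and 1.52 above it on day 0, and Slc30a1 stands 2.00 below Slc30a4 on day 5 and 2.87 above it on day 0.

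More mitochondrial carriers fell than rose. Of 30 members 3 rose (10%) and 8 fell (26.7%), against 25.7% and 23% of all tested symbols. The falling share was thus near that of all tested symbols, and the rising share was lower. The median slope was -0.06 log2 units per day, and with quantile normalisation 4 rose and 11 fell. That scaling also raised the falling count of all tested symbols, to 2810 where it was 2359 as deposited. Leaving out day 0 gave 4 falling, and leaving out day 1 or day 4 gave 5. On day 0, 11 of the 30 (36.7%) had their highest value of days 0 to 5, and on day 1 another 9 (30%). Of all tested symbols, 26.4% were highest on day 0 and 18.7% on day 1. Slc25a5, the ADP/ATP carrier of dividing cells, had log2 values of 13.67, 13.15, 12.61, 12.21, 11.82 and 11.76 and fell by 0.40 ± 0.039 (adjusted p = 0.00235), a call kept whichever day was left out. Slc25a4, the ADP/ATP carrier best known from heart and muscle, had 11.98, 12.59, 12.10, 12.59, 12.56 and 12.71 and was not called (slope 0.12, adjusted p = 0.0996). It was called as rising after quantile normalisation (slope 0.16, adjusted p = 0.0256), with the length correction (0.18, adjusted p = 0.0199) and without day 1 (0.16, adjusted p = 0.0314). Per kilobase, Slc25a5 led by 1.52, 0.39 and 0.35 log2 units on days 0, 1 and 2 and stood 0.54, 0.91 and 1.12 below on days 3, 4 and 5. The pair are close paralogs, and the handling of reads that match both is among the steps not given in the sources used here.

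Slc25a3, the phosphate carrier, stayed between 12.84 and 13.24 and was not called. The other carriers that fell and were called whichever day was left out were Slc25a15, the ornithine carrier (-0.33 ± 0.06, adjusted p = 0.00695), Slc25a33, a pyrimidine nucleotide carrier (-0.30 ± 0.056, adjusted p = 0.00704), and Slc25a13, an aspartate and glutamate carrier (-0.30 ± 0.056, adjusted p = 0.00728). Slc25a12, the other aspartate and glutamate carrier, had 10.14, 9.09, 8.16, 8.23, 8.59 and 8.74, lowest on day 2, and was not called. Slc25a39, which serves mitochondrial glutathione import, fell by 0.20 (adjusted p = 0.0091, and 0.0575 without day 0). Slc25a1, the citrate carrier, fell by 0.17 ± 0.053 (adjusted p = 0.0368) but was called in 2 of the 6 fits that left out a day.

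Against this family stood Slc25a24, a calcium-regulated carrier of ATP-Mg and phosphate (chr3:108926066-108971327, mm9, plus strand). It had log2 values of 4.40, 6.87, 8.97, 9.43, 9.79 and 9.97, resting on 837 reads on day 5 and 11 on day 0. It rose by 1.06 ± 0.20 log2 units per day (adjusted p = 0.00724), called whichever day was left out, and on day 5 was 47.3-fold above day 0, at 5.57 log2 units with an interval of 4.72 to 6.57. The remaining risers were Slc25a44, a branched-chain amino acid carrier, at 0.23 ± 0.045 (adjusted p = 0.00802), and Slc25a17, a peroxisomal cofactor carrier, at 0.26 ± 0.056 (adjusted p = 0.0118).

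Carriers of inorganic ions and bicarbonate had 7 rising (30.4%) and 3 falling (13%) among 23 members, against 25.7% and 23% of all tested symbols. Without day 0, 3 rose, without day 4, 4 rose, and without day 1 or day 4, 1 fell. Slc4a9, of the bicarbonate carrier family, had the steepest rise of all 171, with 5.33, 5.87, 8.53, 9.86, 10.87 and 10.67 and a slope of 1.23 ± 0.16 (adjusted p = 0.00311). On day 5 it was 40.5-fold above day 0, and most of the increase fell between days 1 and 4. A log2 value of 5.26 on day 0 stood for 20 reads, so this fold rests on few reads on day 0. Slc4a2, the chloride and bicarbonate exchanger, rose by 0.43 ± 0.054 (adjusted p = 0.00311), while Slc4a10 fell by 0.33 ± 0.055 (adjusted p = 0.00531), with 8.80 on day 5 and 10.63 on day 0.

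Slc12a4, a potassium and chloride cotransporter, rose by 0.33 ± 0.057 (adjusted p = 0.00553), called whichever day was left out. Slc4a11 fell by 0.34 ± 0.095 (adjusted p = 0.026), called in 2 of the 6 fits that left out a day. Slc20a1, a phosphate importer, had 12.58 on day 0, 10.97 on day 1, which was 3.06-fold lower, and 10.56 to 11.21 on days 2 to 5, and was not called.

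Among carriers of vitamins, choline and haem 2 of 8 rose (25%) and 2 fell (25%), near the 25.7% and 23% of all tested symbols. Without day 0 0 fell, without day 1, 4 or 5 1 rose and 1 fell, and 1 rose after quantile normalisation, with median-centred libraries and with the length correction. Slc44a3, of the choline carrier family, rose by 0.82 ± 0.12 (adjusted p = 0.00404), with 5.85, 7.03, 8.68, 9.27, 9.96 and 9.73, while its relatives Slc44a1 and Slc44a2 were not called. The Slc44a3 rise starts from few reads, as a log2 value of 5.85 on day 0 stood for 30 reads. Without day 0, Slc44a2 was called as rising, by 0.26 (adjusted p = 0.0379), where its slope over days 0 to 5 was 0.13. Slc19a1, the reduced folate carrier, had 7.99 on day 5 and 9.18 on day 0 and fell by 0.28 ± 0.057 (adjusted p = 0.00955, and 0.0621 without day 0). Slc23a2, a vitamin C carrier, fell by 0.12 (adjusted p = 0.0237), and Slc19a2, a thiamine carrier, rose by 0.20 (adjusted p = 0.0404). Both were called in 2 of the 6 fits that left out a day, and Slc19a2 in none of the other scalings (adjusted p = 0.052 to 0.111).

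Of 6 carriers of lipids, acetyl-CoA and bile acids 2 rose (33.3%) and 0 fell, where 25.7% and 23% of all tested symbols did. Without day 0, 1 rose. Slc33a1, the acetyl-CoA carrier of the endoplasmic reticulum, rose by 0.39 ± 0.071 (adjusted p = 0.0066), with 9.24 on day 5 and 7.19 on day 0. Slc27a3, of the fatty acid carrier family, rose by 0.42 ± 0.097 (adjusted p = 0.0133, and 0.0858 without day 0). Of 7 carriers of peptides, organic ions and vesicle contents 3 rose (42.9%) and 0 fell, where 25.7% and 23% of all tested symbols did. After quantile normalisation 2 rose and 2 fell, where 2143 and 2810 of all 10246 tested symbols did. Slc22a17, known as a receptor of lipocalin 2, rose by 0.70 ± 0.094 (adjusted p = 0.00331) and was 14.1-fold above day 0 on day 5, with 6.07, 6.95, 8.55, 8.51, 8.82 and 9.89. This fold too rests on few reads on day 0, when a log2 value of 6.03 stood for 34 reads. Slc17a5, the sialic acid exporter of lysosomes, rose by 0.39 ± 0.071 (adjusted p = 0.00683). Of the carriers under other symbols, 27 of 42 listed were tested. Of these 13 rose (48.1%) and 2 fell (7.41%), against 25.7% and 23% of all tested symbols. Slco2a1, a prostaglandin carrier, rose by 1.21 log2 units per day, Ctns, the lysosomal cystine exporter, by 0.85, Ank, which exports pyrophosphate, by 0.69 and Slco3a1 by 0.51.

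The 6 carriers of lactate and dicarboxylates held no called member, and their median slope of 0.03 was -0.05 after quantile normalisation and -0.01 with median-centred libraries. Slc16a1 and Slc16a3 are the carriers of lactate and pyruvate. Slc16a1 had 11.15, 10.93, 11.67, 12.21, 11.87 and 11.20, highest on day 3. Slc16a3 had 9.53, 10.06, 9.26, 9.49, 9.62 and 9.51, highest on day 1. Slc22a23, an organic ion carrier by sequence, had 5.75, 8.53, 9.86, 9.19, 8.95 and 8.56, highest on day 2 and lowest on day 0, and the line was not called. Its day 0 value rests on few reads, as a log2 value of 5.85 on that day stood for 30 reads. Slc13a5, the citrate carrier, had 8.51 on day 0 and 6.64 on day 1, 3.66-fold lower, then 8.14 on day 3 and 6.81 on day 5.

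To ask which courses bent, the squared term of day was tested alone in the same tool. The term is negative for a peak and also for a rise that levels off. It is positive for a trough and also for a fall that flattens. Limma called 0 of the 171 solute carriers in either direction, where 0.0195% of all tested symbols were called with a negative term and 0% with a positive one. At an unadjusted p under 0.05, 27 solute carriers had a negative term and 15 a positive one, against 1325 and 688 of the 10246 tested symbols. Slc30a4 came nearest, at an adjusted p of 0.0501 (unadjusted 0.000106), a rise that levelled off. Slc2a3 and Slc25a12 each had an unadjusted p of 0.00133, with a negative term for the first and a positive one for the second. Counted by size, a rule chosen after the values were seen, 8 solute carriers had a value on days 1 to 4 at least 1 log2 unit above both day 0 and day 5 (4.68%, against 2.26% of all tested symbols). Among these were Slc1a5, Slc2a1, Slc2a3, Slc4a8, Slc16a1, Slc22a23 and Slc39a8. Without day 0, Slc4a8 was called as falling over the line (slope -0.33, adjusted p = 0.0477). None lay that far below both ends, where 1.36% of all tested symbols did.

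**Figure D4:**
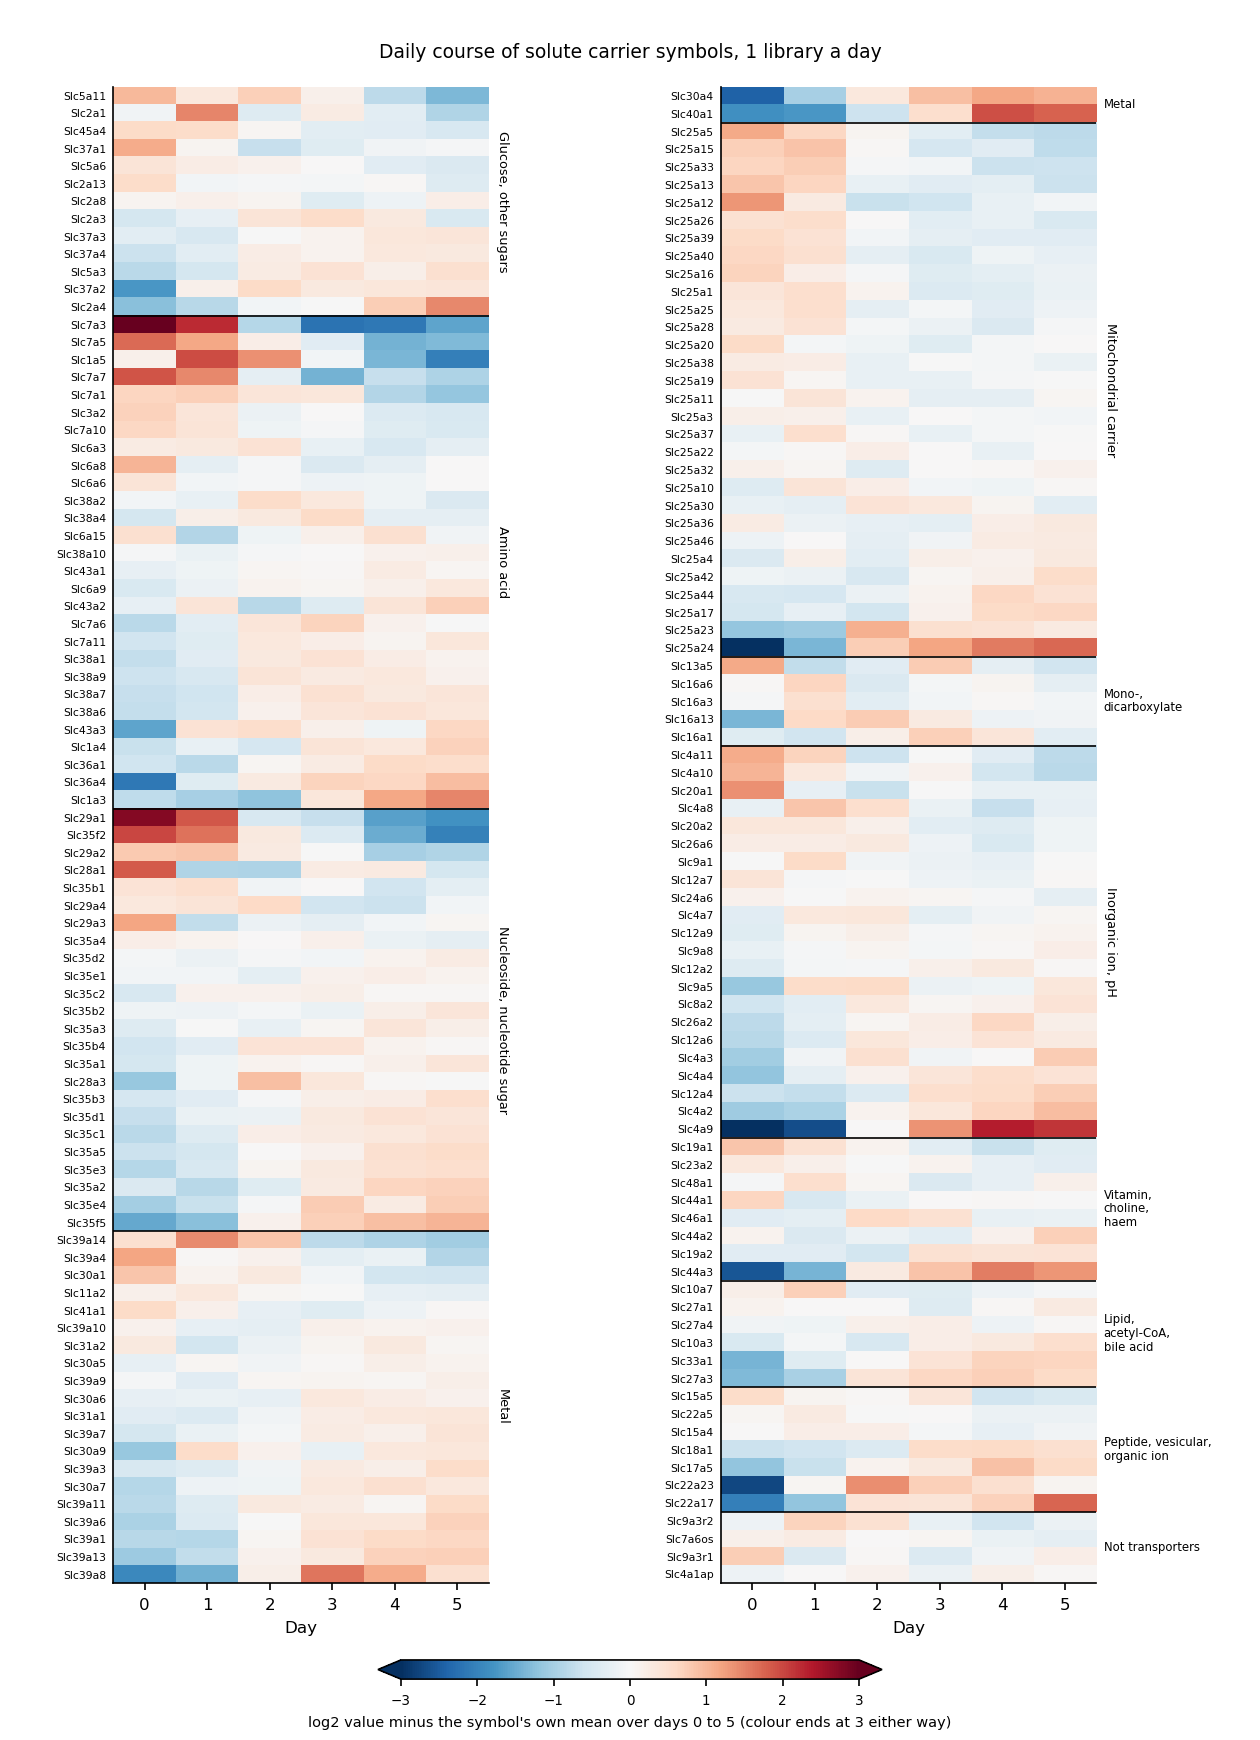
Log2 value minus the symbol's own mean over days 0 to 5 (colour, which ends at 3 log2 units either way) for solute carrier symbols (rows, by family and then by slope) on each day (columns, 1 library each). Red is above and blue below the mean: in the amino acid family Slc7a3 passes to blue after day 1 and Slc1a3 to red after day 2, and in the mitochondrial family most rows are red on day 0 while Slc25a24 is blue.

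Per kilobase on day 5 the highest solute carriers were Slc25a4 at 12.56, Slc25a3 at 12.36, Slc2a3 at 12.21, Slc25a5 at 11.44 and Slc2a1 at 10.95. On day 0 they were Slc25a5 at 13.35, Slc25a3 at 12.63, Slc2a3 at 12.14, Slc29a1 at 11.86 and Slc25a4 at 11.84. Neighbours in these orders have no replicate spread to be set against. Among 4 motifs searched on both strands of the same windows, the E-box CACGTG was in 15 of the 113 matched solute carriers (13.3%), against 6.02% of all windows, and of its 15 holders 6 rose, 3 fell and 6 were not called. The nuclear receptor half-site AGGTCA was in 9 (7.96%), against 14.0%. The 32851 windows outnumber the 10246 symbols tested and are not limited to them, so these shares are not like for like. Whether the E-box share of the solute carriers differs from that of tested symbols alone was not tested.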

How the data were processed

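RNA-seq of 7 libraries, 1 a day, was used as deposited: log2 of scaled read values per RefSeq transcript (15296 rows), made by the authors. Alignment was with BWA 0.7.3 to mm9, per the submitters' processing notes. The kit keeps strand, per the labels' protocols; the counting tool, strand setting, annotation and scaling method were steps not given in the sources used here. Raised from the log, all values up to 1000 reads were whole multiples of 1 step per library within 0.05 reads, which gave the depths; the median transcript had 241 to 498 reads on days 0 to 5.

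The members, families, pathway lists and markers were chosen with earlier results of these data known. The pairs compared per kilobase were set by hand, by no rule. Symbols with a mean of 7 or more (10246, all members among them) were fitted with limma 3.58.1 in R 4.3.3, with a mean trend and adjustment over all of them; summaries used Python 3.11.15, scipy 1.17.1 and statsmodels 0.14.6. The fit was tested on simulated data with known slopes. Where labels do not name separate cultures, p-values measure the spread of these libraries only. Values per kilobase were divided by the listed transcript length. Of the members, 26 list more than 1 transcript, and 9 overlap another listed symbol, 1 of them on the same strand. Named members were the 12 steepest called slopes in each direction with a stable sign, in each family the 3 highest means and the steepest called slopes, the 6 smallest p of the curved term, the 5 largest day 1 differences in each direction, and a set of fixed examples; further members are named as the called ones of a family. Some members are counted but not reported singly here. RefSeq windows (GRCm38.p6) served for sequences only, matched by symbol with the transcript start within 100 bases; 113 members matched. Alternatives were 2 filters, 3 scalings, added reads, summed transcripts, all 7 libraries and each day left out.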

Additional observations from a re-analysis of the deposited data

How the results depend on the processing

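No paired analysis was possible because each day had 1 library. The counts of 48 rising and 31 falling solute carriers were 1 and 9 with all 7 libraries, and 29 and 20 with symbols of a mean above 8.5, which tests 103 of them. They ranged from 27 to 53 and from 16 to 29 over the fits that left out a day. After quantile normalisation they were 36 and 40, and with median-centred libraries, an alternative chosen after seeing the data, 43 and 38. The counts stayed within 1.5 times without a filter, with the length correction, with the worth of 10 reads added and with summed transcripts. The curved term was called as negative for 6 members and as positive for 2 with all 7 libraries, against 0 and 0. At 1 log2 unit, 16 stood above and 12 below day 0 on day 1, and 50 above and 30 below on day 5. After quantile normalisation 1 stood at least 4-fold above day 0 on day 1 and 9 on day 5.

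Among named members no slope that changed sign was called under the setting that changed it; the cause was not tested. With all 7 libraries the slopes (log2 units per day) became -0.056 for Slc12a4, -0.42 for Slc16a1, -0.24 for Slc16a13, -0.25 for Slc19a2, -0.13 for Slc22a23, 0.11 for Slc25a3, -0.24 for Slc27a4 and -0.58 for Slc2a3. They became -0.23 for Slc35b4, -0.45 for Slc35e1, -0.055 for Slc36a4, -0.20 for Slc37a3, -0.45 for Slc38a4, -0.49 for Slc39a10, -0.11 for Slc39a7, -0.036 for Slc43a3 and -0.26 for Slc44a2. Quantile normalisation gave -0.031 for Slc16a13, 0.00015 for Slc25a3 and -0.0072 for Slc27a4. The length correction gave -0.019 for Slc27a4, -0.028 for Slc35e1, -0.033 for Slc38a4 and -0.025 for Slc39a10, and median-centring -0.023 for Slc27a4, -0.039 for Slc38a4 and -0.0041 for Slc39a10.

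Over the fits that left out a day, slopes of members not called over days 0 to 5 ranged from -0.29 to 0.041 for Slc13a5, from -0.23 to 0.21 for Slc16a13, from -0.075 to 0.017 for Slc16a3, from -0.29 to 0.052 for Slc20a1 and from -0.084 to 0.71 for Slc22a23. They ranged from -0.35 to 0.20 for Slc28a1, from -0.21 to 0.17 for Slc29a3, from -0.052 to 0.24 for Slc2a3 (called without day 5, adjusted p = 0.0396), from -0.11 to 0.046 for Slc38a2, from -0.14 to 0.090 for Slc38a4, from -0.029 to 0.35 for Slc43a3 and from -0.11 to 0.014 for Slc6a6. Most of these signs turned without day 0. Single-day differences rest on 1 library each, and the lowest members on few reads.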

Other observations

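Of the 38 solute carrier symbols with a mean under 7, a fit without a filter on low values called 7 rising and 10 falling, at adjusted p under 0.05 over all 12071 symbols in limma. The steepest rises among them were Slc8a1, a sodium and calcium exchanger, at 1.10 log2 units per day, Slc16a12 at 0.95 and Slc34a2, a phosphate carrier, at 0.84. Falls among them included Slc30a2, a zinc exporter, at -0.74, and Slc27a2, of the fatty acid carrier family, at -0.72. Over all 209 solute carrier symbols that fit called 55 rising (26.3%) and 41 falling (19.6%), against 25.9% and 22.1% of all symbols.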
